A study of Mus musculus with 92 samples.

Results

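Id1, Id2, Id3, Tcf3, Tcf4, Tcf12 and Ets1 were followed cell by cell. These 7 genes were chosen by name, as the Id genes with their E protein partners and with Ets1, and all 7 are among the 23956 gene symbols of the deposited expression table. The mice were C57BL/6 with the genotype Gfi1-R412X/R412X, and their marrow supplied the cells. In this allele the gene for the repressor GFI1 carries a premature stop. Marrow enriched for CD117 was sorted through 2 gates, CD11b+ GMP-P with 47 cells and GMP with 45 cells, and each cell's RNA was copied on a Fluidigm C1 chip. All 92 cells carry the mutation and 0 are wild type, so the values describe mutant cells and not the effect of the mutation. The authors' annotation gives each cell to 1 of 9 named states, used here as they spelled them.

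Id proteins are helix-loop-helix proteins without a DNA-binding region. They pair with E proteins, the basic helix-loop-helix factors encoded by Tcf3, Tcf4 and Tcf12, and keep them off DNA, so the balance of Id and E protein sets how active E protein target genes are. In blood, E proteins are best known for starting the B and T lymphoid programmes, Id2 for innate lymphoid and dendritic cells, and Tcf4 for plasmacytoid dendritic cells. ETS1 is a DNA-binding factor of the Ets family, known mainly from lymphocytes. Id2 and Ets1 are known targets that GFI1 represses.

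The upstream sequences of Id2, a known GFI1 target with the highest mean level among the Id genes, and of Id3, which was almost unseen in these cells, are printed for comparison. Each is the 250 bases before the gene's start, read 5′ to 3′ on the gene's own strand, from RefSeq on build GRCm38.p6. The Id2 window lies on the minus strand at chr12:25096093-25096342 and the Id3 window on the plus strand at chr4:136143572-136143821. Capitals mark AATC, the core of the GFI1 recognition sequence, on either strand (AATC or its reverse complement GATT).
Id2: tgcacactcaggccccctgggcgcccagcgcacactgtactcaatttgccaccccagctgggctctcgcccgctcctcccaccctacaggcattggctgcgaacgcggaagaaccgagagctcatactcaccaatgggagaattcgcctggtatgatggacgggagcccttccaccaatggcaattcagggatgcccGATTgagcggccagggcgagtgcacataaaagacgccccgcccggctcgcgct
Id3: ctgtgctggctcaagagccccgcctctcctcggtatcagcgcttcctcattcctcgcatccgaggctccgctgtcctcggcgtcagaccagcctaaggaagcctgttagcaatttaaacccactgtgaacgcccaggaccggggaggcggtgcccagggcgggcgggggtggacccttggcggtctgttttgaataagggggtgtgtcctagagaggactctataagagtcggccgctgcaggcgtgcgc
The Id2 window holds 1 such core, 53 bases before the start, and the Id3 window holds 0. Of all 32851 promoter windows of this length, 69% hold the core, so the core is common in promoters at large. The E protein motif CANNTG, the same on both strands, is found 1 time in the Id2 window, as CAGCTG, and 0 times in the Id3 window, against 66.2% of all windows. The promoter table has entries for 4 of the 7 genes, Id2, Id3, Tcf3 and Tcf12.

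The deposited values are log2(TPM + 1), where TPM is the transcript abundance per length, scaled to the same total in each cell. TPM levels of different genes in a cell may therefore be set side by side. Each gate is 1 set of cells with its own date code and no named animals, so cells are not replicates, no test was made, and ± SD is the spread of cells. A difference between gates and one between their dates, chips or animals cannot be told apart. Read depth per cell is unknown; a CD11b+ GMP-P cell had a median of 4143 genes above 0 (1993 to 5743) and a GMP cell 5611 (2775 to 6612). Widely used genes were themselves listed at 0 in some cells, Hprt in 7 of 47 CD11b+ GMP-P and 3 of 45 GMP cells, so a 0 below means only that the gene is listed at 0. Intervals on shares of cells are exact Clopper-Pearson 95% intervals and cover counting error only.

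Id2, the inhibitor above 0 in most cells, lay higher in CD11b+ GMP-P than in GMP. Its TPM ran from 0 through a median of 62.7 to 1312 in the 47 CD11b+ GMP-P cells, against 0, 0 and 392 in the 45 GMP cells. The gates overlapped, since both held cells listed at 0. Id2 was above 0 in 35 of 47 CD11b+ GMP-P cells (74.5%, 59.7 to 86.1) and 21 of 45 GMP cells (46.7%, 31.7 to 62.1), and above 100 TPM in 21 and 6 cells. Much of that lay in level and not only in presence. The mean log2(TPM + 1) was 5.12 ± 3.71 in CD11b+ GMP-P and 2.06 ± 2.99 in GMP, a difference of 3.06.

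The Id2 level was highest in the Myelo states. The 3 Myelo-1 cells held 241, 267 and 527 TPM and the 3 Myelo-4 cells 234, 256 and 634 TPM, so none of these 6 was low. Among the 15 Myelo-2 cells Id2 spanned 0 to 1312 TPM with a median of 229.7, and 13 cells were above 0. Among the 20 Gran-2 cells of the same gate it spanned 0 to 632 with a median of 33.9, and 13 were above 0. The 4 Gran-1 cells of that gate held 0, 12.1, 27 and 74.1 TPM. In GMP, Id2 reached 230.4 TPM in the 24 Mono cells with a median of 0.23, and 86.8 TPM in the 6 Gran-1 cells with a median of 0.54. Most GMP cells were therefore at or near 0, with a minority well above it. The 5 MP cells held 0, 0, 1.8, 3.34 and 71.4 TPM, the 5 Multi-Lin cells 0, 0, 0, 0.47 and 52.3 TPM, and all 3 cMoP cells were listed at 0. Of the 2 GMP cells named Gran-2, one held 392 TPM, the highest Id2 of its gate, and the other was listed at 0.

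**Figure D1:**
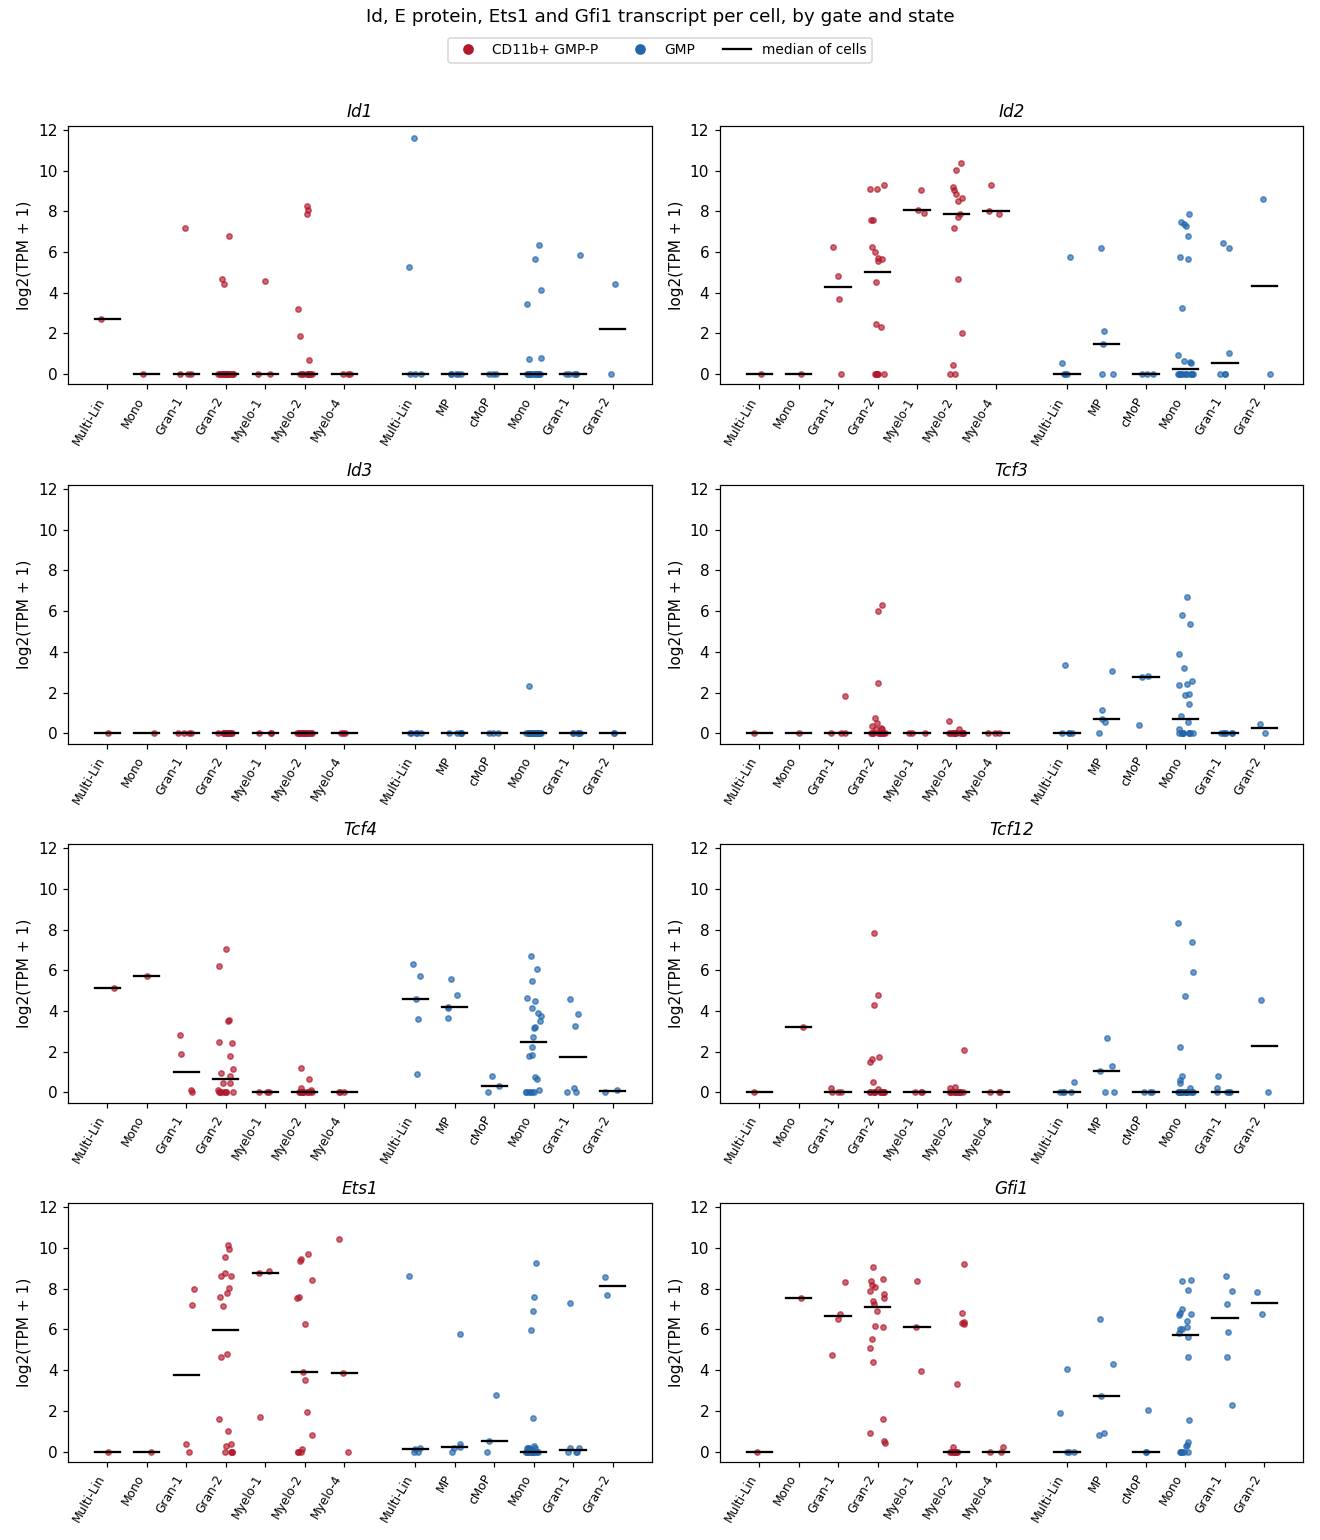
Each point is 1 cell, its height is log2(TPM + 1) of the gene named above the panel, and states stand along the x axis, with CD11b+ GMP-P in red and GMP in blue; bars are medians of cells. Id2 and Ets1 sit high in the red Gran-2 and Myelo states, and Id3 is above 0 in 1 cell. Among states with at least 3 cells, Tcf4 sits highest in the blue Multi-Lin and MP cells.

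Id1, the inhibitor best known as a target of BMP signalling, was sparse in both gates. It was above 0 in 12 of 47 CD11b+ GMP-P cells (25.5%, 13.9 to 40.3) and 10 of 45 GMP cells (22.2%, 11.2 to 37.1), with a median of 0 in both. Its means, 1.28 ± 2.55 in CD11b+ GMP-P and 1.07 ± 2.46 in GMP on the log2 scale, differed by 0.21, far inside the spread of cells, and by -1.61 for the log2 of mean TPM, so no direction is given. The highest level of any gene of the group was Id1 in a Multi-Lin cell of GMP, cell 23, at 3149 TPM. That cell had 3069 genes above 0, listed Gfi1 at 0, and made up most of the summed Id1 TPM of GMP, where the mean over cells was 76 TPM. In CD11b+ GMP-P the 3 highest Id1 values, 306, 263 and 234 TPM, were all in Myelo-2 cells. Id3, the remaining inhibitor, was above 0 in 1 of 45 GMP cells, a Mono cell with 4.05 TPM, and in 0 of 47 CD11b+ GMP-P cells, where a limit of 3 cells for a count of 0 gives up to 6.38% of cells listed above 0.

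Tcf4, the E protein gene of widest detection here, lay lower in CD11b+ GMP-P. Its TPM ran from 0 through a median of 0 to 131 in the CD11b+ GMP-P cells, against 0, 7.89 and 104 in GMP, so the medians parted while the ranges were alike. It was above 0 in 22 of 47 CD11b+ GMP-P cells (46.8%, 32.1 to 61.9) and 35 of 45 GMP cells (77.8%, 62.9 to 88.8). On the log2 scale the means were 1.04 ± 1.82 in CD11b+ GMP-P and 2.58 ± 2.19 in GMP, a difference of -1.54.

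Among states with at least 3 cells, the mean log2 level of Tcf4 was highest in MP and Multi-Lin of GMP. All 5 MP cells of GMP held it, at 11.8, 16.5, 17.6, 26.3 and 46.5 TPM, and so did all 5 Multi-Lin cells, at 0.86, 11.2, 23.3, 52.4 and 79.6 TPM. Every cell of these 2 states thus held Tcf4, most of them above 10 TPM. The 24 Mono cells had a median of 4.7 TPM and the 3 cMoP cells held 0, 0.24 and 0.74 TPM. In CD11b+ GMP-P the 20 Gran-2 cells had a median of 0.565 TPM, the 15 Myelo-2 cells reached no more than 1.31 TPM, and all 3 Myelo-1 and all 3 Myelo-4 cells were listed at 0. The single cells of that gate named Mono and Multi-Lin held 51.2 and 34.3 TPM, in the range of the GMP cells with those names.

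Tcf3, whose products E12 and E47 are the classical E proteins, and Tcf12, which encodes HEB, had lower mean log2 levels than Tcf4 in both gates and were at 0 or under 1 TPM in most cells. Tcf3 was above 0 in 12 of 47 CD11b+ GMP-P cells (25.5%, 13.9 to 40.3) and 23 of 45 GMP cells (51.1%, 35.8 to 66.3), but above 10 TPM in only 2 and 4 cells. All 3 cMoP cells held it, at 0.35, 5.91 and 6.01 TPM, as did 14 of 24 Mono cells, with a high of 104 TPM, while all 6 Gran-1 cells of GMP were listed at 0. In CD11b+ GMP-P it was above 0 in 9 of 20 Gran-2 cells and in 2 of 15 Myelo-2 cells, where it stayed at or below 0.52 TPM. Tcf12 was above 0 in 13 of 47 CD11b+ GMP-P cells (27.7%, 15.6 to 42.6) and 16 of 45 GMP cells (35.6%, 21.9 to 51.2). Its highest values, 228 TPM in a CD11b+ GMP-P cell of Gran-2 and 317 TPM in a Mono cell of GMP, stood far above the medians of 0 in both gates. The gate difference on the log2 scale was -0.79 for Tcf3 and -0.32 for Tcf12.

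Ets1 lay higher in CD11b+ GMP-P by about as much as Id2. Its TPM ran from 0 through a median of 23.7 to 1393 in the CD11b+ GMP-P cells, against 0, 0.12 and 617 in GMP. It was above 0 in 36 of 47 CD11b+ GMP-P cells (76.6%, 62 to 87.7) and 25 of 45 GMP cells (55.6%, 40 to 70.4). Above 10 TPM the counts were 27 and 9 cells, and above 100 TPM 21 and 7, so many GMP cells counted as holding Ets1 had only a trace of it. The means were 4.61 ± 3.98 in CD11b+ GMP-P and 1.67 ± 3.04 in GMP on the log2 scale, a difference of 2.94.

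Within CD11b+ GMP-P the states held Ets1 at overlapping levels. The 20 Gran-2 cells spanned 0 to 1136 TPM with a median of 83.4, and the 15 Myelo-2 cells spanned 0 to 832 TPM with a median of 14.2. The 3 Myelo-1 cells held 2.23, 437 and 470 TPM, the 3 Myelo-4 cells 0, 13.5 and 1393 TPM, and the 4 Gran-1 cells 0, 0.29, 145 and 250.2 TPM. In each of these states some cells held little or no Ets1 and others well over 100 TPM. In GMP, 11 of 24 Mono cells were above 0, of which 4 were above 10 TPM, and the 6 Gran-1 cells held 155 TPM in cell 12 and no more than 0.15 TPM in the rest. The 2 GMP cells named Gran-2 held 203 and 381 TPM, inside the range of the same state in the other gate. Their mean, 8.12 on the log2 scale, was above that of every larger state, but rests on 2 cells. Ordered by mean over the states with at least 3 cells, the 5 CD11b+ GMP-P states held the 5 highest Ets1 means, from 6.45 in Myelo-1 to 3.88 in Gran-1, and the GMP states followed from 1.78 in Multi-Lin to 1.10 in cMoP. For Id2 over the same states the order was Myelo-4 (8.40), Myelo-1 (8.34), Myelo-2 (6.31), Gran-2 (4.05) and Gran-1 (3.69) of CD11b+ GMP-P, then GMP Gran-1 (2.29), Mono (2.26), MP (1.96) and Multi-Lin (1.26), with cMoP at 0. None of the 9 neighbouring pairs in either order differed by more than the pooled SD of their cells.

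Against the background of all genes, the higher levels of Id2 and Ets1 stand apart and the lower level of Tcf4 does not. A gene was compared where 25% or more of either gate's cells listed it above 0, and 6 of the 7 genes passed, all but Id3. Of these 6, 3 were at least 2-fold apart, against 41.7% of all genes compared. Id2 and Ets1 passed 2-fold on the higher side, against 2.72% of the 7803 genes compared, and 99.6% and 99.5% of those genes had a smaller difference. At least 2-fold lower was Tcf4, as were 39% of the genes compared. The median difference of all genes was -0.74, and relative to it Id2 stood at 3.80, Ets1 at 3.67, Tcf12 at 0.41, Tcf3 at -0.05 and Tcf4 at -0.80. Without the Myelo states Id2 differed by 1.63 and Ets1 by 2.73, and in 22 pairs of cells matched on genes detected by 3.13 and 2.44. The share of all genes compared that was at least 2-fold higher also rose, to 5.14% without the Myelo states and 12% in matched cells. Tcf4 no longer passed 2-fold in matched cells (-0.97), without the Myelo states (-0.78), for the log2 of mean TPM (-0.97) or with a pseudocount of 10 (-0.57).

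**Figure D2:**
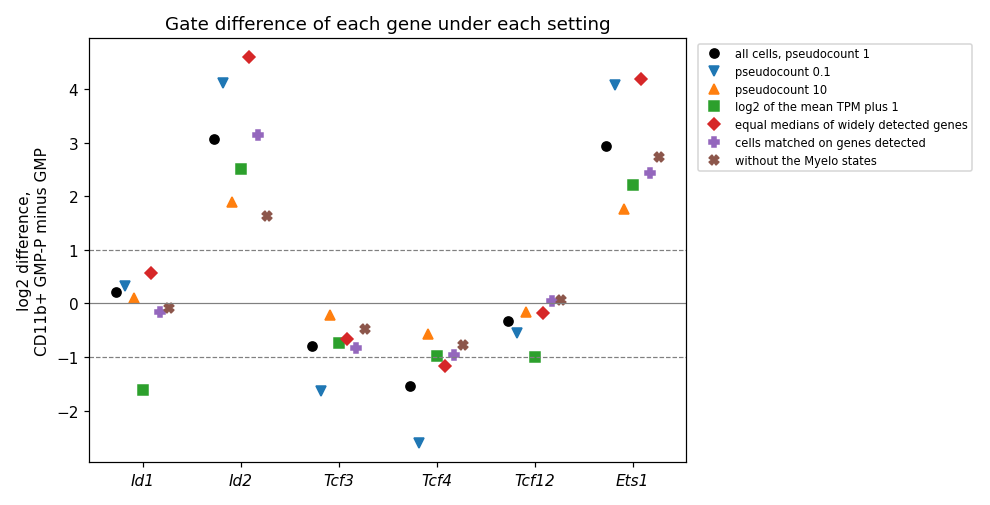
The y axis is the log2 difference of the mean level, CD11b+ GMP-P minus GMP, for the 6 genes compared; each symbol is 1 setting and the dashed lines mark 2-fold. Id2 (1.63 to 4.59) and Ets1 (1.75 to 4.19) lie above the upper line in all 7 settings, while Tcf4 (-2.61 to -0.57) crosses the lower one.

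Between the main states of CD11b+ GMP-P, Myelo-2 cells held more Id2 than Gran-2 cells, while the E protein genes were lower about as far as genes at large. Id2 averaged 6.31 ± 3.81 in the 15 Myelo-2 cells and 4.05 ± 3.55 in the 20 Gran-2 cells, a difference of 2.25, and the difference for Id1, above 0 in 6 of 15 Myelo-2 and 3 of 20 Gran-2 cells, was 1.20. Of the 6 genes compared 3 were at least 2-fold apart, against 53.8% of all genes. Id1 and Id2 were higher, against 2.62% of 7334 genes, and Tcf4 (-1.40) was at least 2-fold lower, against 51.2%. Id1 met the detection limit for comparison through Myelo-2 alone, where 40% of cells listed it above 0. In Gran-2 15% did, under the limit, so the call for Id1 rests on detection in its higher group. Tcf12 (-0.95) and Tcf3 (-0.81) lay close to the median of all genes, -1.04. With cells scaled to equal medians, where the median of all genes was -0.32, 0 of the 6 were at least 2-fold lower, and Id1, Id2 and Ets1 were higher, against 20.9% of all genes. With a pseudocount of 10 the difference for Id1 was 0.69, under 2-fold. Ets1 differed by -0.37, and by 2.21 with equal medians, so no direction is given for it. The median number of genes above 0 was 2936 in Myelo-2 and 4595 in Gran-2 cells, and transcripts of 8 late granule genes took a median of 51.7% of TPM in Myelo-2 and 14.8% in Gran-2. The part of these values in the difference was not tested.

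Between the granulocyte and monocyte states of GMP, Id2 and Ets1 hardly differed. Id2 averaged 2.29 ± 3.16 in the 6 Gran-1 cells and 2.26 ± 3.14 in the 24 Mono cells. Ets1 averaged 1.28 ± 2.94 in Gran-1 and 1.36 ± 2.85 in Mono. Gfi1 was higher in the same Gran-1 cells, 6.10 ± 2.35 against 3.98 ± 3.32 in Mono. Of the 6 genes compared 2 were at least 2-fold apart, against 34.8% of all genes. Lower in Gran-1 were Tcf12 (-1.11) and Tcf3, which was listed at 0 there, against 21% of 8601 genes, and 0 of the 6 were at least 2-fold higher, against 13.8%. Tcf3 met the detection limit for comparison through Mono alone, where 58.3% of cells listed it above 0. In 5 pairs matched on genes detected Ets1 stood at 1.45 and Id2 at -1.81, so neither direction held among so few cells.

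Inhibitor transcript exceeded E protein transcript in most CD11b+ GMP-P cells and in fewer GMP cells. Summed Id1, Id2 and Id3 TPM exceeded summed Tcf3, Tcf4 and Tcf12 TPM in 34 of 47 CD11b+ GMP-P cells (72.3%, 57.4 to 84.4) and in 16 of 45 GMP cells (35.6%, 21.9 to 51.2). The median Id sum was 110.5 TPM in CD11b+ GMP-P and 1.08 TPM in GMP, and the median E protein sum 0.24 TPM in CD11b+ GMP-P and 15.1 TPM in GMP. Id exceeded E protein transcript in 14 of 15 Myelo-2 cells and in all 3 Myelo-1 and all 3 Myelo-4 cells, and in these 6 cells all of Tcf3, Tcf4 and Tcf12 were listed at 0. The median number of genes above 0 was 4428 in Myelo-1, 2936 in Myelo-2 and 2192 in Myelo-4 cells, against 4595 in Gran-2 cells. The part of genes detected in these counts was not tested. Gran-2 cells of CD11b+ GMP-P divided, with the Id sum higher in 11 of 20 (55%, 31.5 to 76.9) and the E protein sum higher in 9. In GMP the E protein sum was higher in 14 of 24 Mono cells, 4 of 5 MP cells, 3 of 5 Multi-Lin cells and all 3 cMoP cells. In the 6 Gran-1 cells of GMP the Id sum was higher in 3 and the E protein sum in 2, and of the 2 Gran-2 cells of GMP the Id sum was higher in 1, with both sums at 0 in the other. No E protein gene was above 0 in 18 of 47 CD11b+ GMP-P cells and 4 of 45 GMP cells. Transcript sums do not measure the proteins or their pairing.

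**Figure D3:**
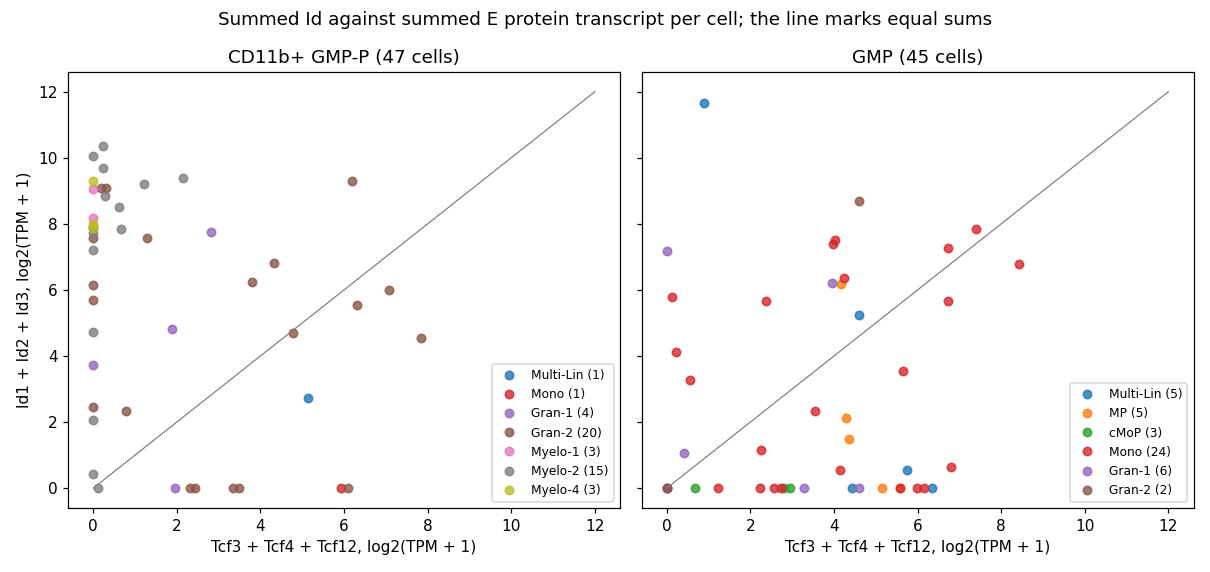
Each point is 1 cell, with summed E protein transcript on the x axis and summed Id transcript on the y axis, both as log2(TPM + 1), CD11b+ GMP-P on the left and GMP on the right, coloured by state; the line marks equal sums. Myelo cells line the left edge of the CD11b+ GMP-P panel at high Id sums, and 34 of 47 cells there lie above the line, against 16 of 45 in GMP.

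GFI1 represses Id2 and Ets1, so their transcripts were set beside Gfi1 transcript in the same cells. Every cell carries the R412X allele with its premature stop, so this is mutant Gfi1 transcript and does not measure working repressor. Gfi1 was above 0 in every one of the 20 CD11b+ GMP-P cells named Gran-2, and Id2 was above 0 in 13 of them and Ets1 in 16. With a threshold of 10 TPM for both genes, 8 of 20 Gran-2 cells held Id2 and Gfi1 and 9 held Ets1 and Gfi1. Since all 20 cells listed Gfi1 above 0, the counts above 0 only restate how often Id2 and Ets1 were listed. Above 10 TPM, Gfi1 itself was found in 16 of the 20 cells, Id2 in 11 and Ets1 in 12. Of the 15 Myelo-2 cells, 7 held Gfi1, of which 6 held Id2 and 7 held Ets1; of the 8 listed at 0 for Gfi1, 7 held Id2 and 5 held Ets1. Of the 24 GMP Mono cells, 18 held Gfi1, of which 11 held Id2 and 8 held Ets1; of the 6 without it, 1 held Id2 and 3 held Ets1. All 6 Gran-1 cells of GMP held Gfi1, and 3 each held Id2 and Ets1. Over all cells, Id2 and Gfi1 were found together in 26 of 47 CD11b+ GMP-P cells (55.3%, 40.1 to 69.8) and 19 of 45 GMP cells (42.2%, 27.7 to 57.8), and Ets1 and Gfi1 in 30 of 47 (63.8%, 48.5 to 77.3) and 20 of 45 (44.4%, 29.6 to 60). With 10 TPM required of both genes the shares were smaller, and Ets1 and Gfi1 were together in 36.2% of CD11b+ GMP-P and 11.1% of GMP cells. Gfi1 itself was above 0 in 36 of 47 CD11b+ GMP-P and 34 of 45 GMP cells. The joint counts expected from the separate shares were not computed, so no relation is read from the counts found.

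As levels, the genes of the group followed Gfi1 weakly or not at all within the states of at least 15 cells. Pearson's r on log2(TPM + 1) between Id2 and Gfi1 was -0.32 over the 20 Gran-2 cells, 0.13 over the 15 Myelo-2 cells and 0.32 over the 24 Mono cells. Between Ets1 and Gfi1 it was 0.04, 0.17 and 0.01 over the same cells. In Gran-2 the Id2 value kept its sign and size with ranks (Spearman's rho -0.38) and given the number of genes detected (partial r -0.32). In Mono the Id2 value was 0.14 given genes detected, with which Id2 itself had r = 0.56, and in Myelo-2 it was -0.08. Tcf4 and Gfi1 had r = -0.33 in Gran-2, -0.10 in Myelo-2 and 0.13 in Mono. Over all 15 gene and state pairs with at least 15 cells r lay between -0.33 and 0.32, and 11 of the 15 had the same sign by all 3 measures. In the 6 Gran-1 cells of GMP the values were larger, with r = 0.67, rho 0.81 and partial r 0.64 for Tcf4, and r = -0.25 for Id2 and -0.28 for Ets1, over 6 cells only. Cells of a state share a gate and its date code, values are sparse, and these correlations are descriptions. They concern mutant Gfi1 transcript and do not measure repression by GFI1.

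**Figure D4:**
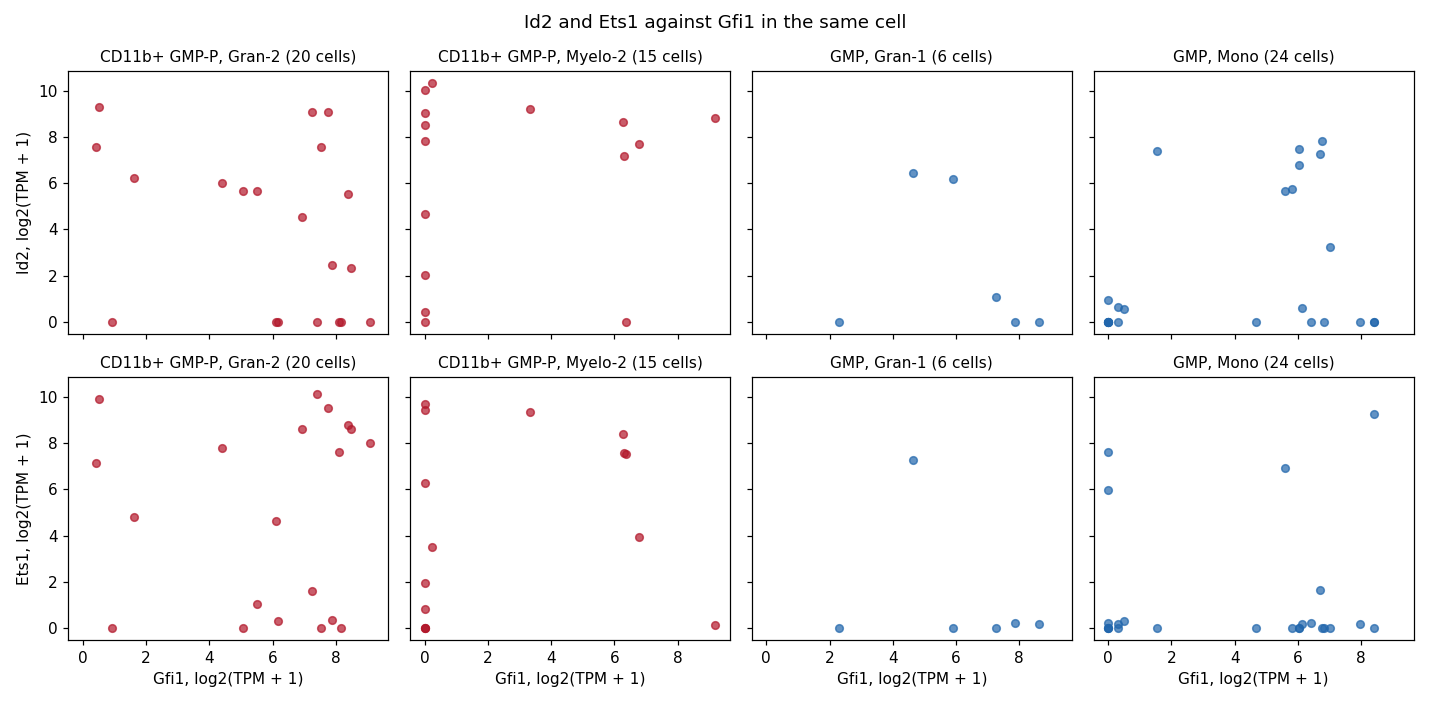
Each point is 1 cell, with Gfi1 on the x axis and Id2 (top) or Ets1 (bottom) on the y axis, all as log2(TPM + 1), for the 4 states with at least 6 cells. In Gran-2 the 7 cells listed at 0 for Id2 span 0.88 to 545 TPM of Gfi1 (r = -0.32), and Ets1 is spread over the whole Gfi1 range (r = 0.04).

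Id2 and Ets1, held by 35 and 36 of 47 CD11b+ GMP-P cells and by 21 and 25 of 45 GMP cells, were together above 0 in 29 of 47 CD11b+ GMP-P cells (61.7%, 46.4 to 75.5) and 11 of 45 GMP cells (24.4%, 12.9 to 39.5), and above 10 TPM in 20 and 3 cells. Within states the correlation of their levels was weak, with r = 0.14 in Gran-2, -0.02 in Myelo-2 and -0.08 in Mono. Irf8, the monocyte and dendritic factor that GFI1 also represses, was above 0 in all 12 Mono cells that held Id2 and in 10 of the 11 that held Ets1. It was above 0 in 22 of all 24 Mono cells.

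The genes whose levels were most like Id2 over the 47 CD11b+ GMP-P cells were Actb (r = 0.49), Itgb2 (0.44), Ngp (0.44), Arrb2 (0.43) and Camp (0.43), among the 6115 genes that 25% or more of those cells listed above 0. For Ets1 they were Aldh3b1 (0.59), Rqcd1 (0.52), Naa60 (0.48), Vti1b (0.46) and Ccdc125 (0.45). For Tcf4 they were Ccl9 (0.70), Alkbh6 (0.62), Cdh11 (0.61), Wdr43 (0.59) and Kcnq1ot1 (0.58). The leading genes for Tcf3, Tcf12 and Id1 were Fra10ac1 (0.74), Smarcal1 (0.66) and Tc2n (0.54), all at a median of 0 TPM. Over the 45 GMP cells, among 7550 genes, Id2 was most like 5730508B09Rik (0.61), Pip5k1c (0.57) and Ccdc47 (0.55), Ets1 most like Ints12 (0.57), and Tcf4 most like Slc25a28 (0.59). Tcf12 was most like Sfxn3 (0.81) and Tcf3 most like Cyp51 (0.67). Of the 5 leading genes of each of the 6 genes, 0 were the same in both gates. Id1 is among the 6 although only 22.2% of GMP cells listed it above 0. The overlap for genes at large was not computed, so no difference between the gates is read from this count. The correlations named are the highest of as many values as there were genes and describe these cells only.

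Genes that work with this group were set beside all genes compared, of which 39% passed 2-fold on the lower side between the gates and 2.72% on the higher. Of 21 other helix-loop-helix and LIM complex genes, 9 were compared, of which 4 passed 2-fold on the lower side and 0 on the higher, and their median was -0.85 against -0.74 for all genes. Myc, a growth-promoting helix-loop-helix factor, averaged 2.12 ± 2.94 in CD11b+ GMP-P and 6.43 ± 2.72 in GMP, a difference of -4.31. The others were Usf1 (-1.93), Gata2 (-1.40) and Lmo2 (-1.30), the bridge between E protein complexes and GATA factors. Of 12 corepressor and coactivator genes 9 were compared and 3 were lower, the deacetylase gene Hdac2 (-1.54) and the ETO family genes Cbfa2t2 (-1.54) and Cbfa2t3 (-1.33), with 0 higher and a median of -0.91. Of 14 other Ets family genes 8 were compared, with 3 lower, Elf1 (-1.99), Etv6 (-1.78) and Gabpa (-1.28), 0 higher and a median of -0.59.

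Of 16 genes of BMP and TGF-beta signalling, which acts upstream of Id genes, 5 were compared, with Smad2 lower (-1.39), 0 higher and a median of -0.25, against the same 39% lower among all genes. Of 12 other known GFI1 targets 7 were compared, with 5 lower and 0 higher and a median of -1.45, against 39% lower and 2.72% higher among all genes. They were Irf8 (-3.39), Egr1 (-2.65), Csf1r (-2.13), Meis1 (-1.45) and Hoxa9 (-1.27), the last of which was named after its value was seen. Id2 and Ets1 thus lay on the opposite side of 0 from these 5 GFI1 targets in the same comparison. Of 12 lymphoid genes that E proteins switch on 3 were compared, with Cd79b at -1.58, Ptcra at -0.96 and Notch1 at 0.33.

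Markers of the cell types in which these genes are best known were checked in the same cells. Of 6 B cell markers, Cd79a, Pax5 and Ms4a1 were listed at 0 in every cell of both gates, and the list's sum ran from 0 to 350 TPM in CD11b+ GMP-P and from 0 to 1039 TPM in GMP. Of 10 T, NK and innate lymphoid markers, Cd3e, Cd3g, Gata3, Ncr1, Klrb1c and Il7r were at 0 in every cell; Nkg7, a cytotoxic granule gene, was above 0 in 44 of 47 CD11b+ GMP-P and all 45 GMP cells and took most of that list's sum (median 2721 TPM in CD11b+ GMP-P and 3409 TPM in GMP). Of 9 dendritic cell markers, Cd74, H2-Aa, Itgax, Batf3 and Zbtb46 were at 0 in every cell, and the list's sum ran from 0 to 51.3 TPM in CD11b+ GMP-P and from 0 to 907 TPM in GMP. The basophil and mast cell list had a median sum of 0 TPM in CD11b+ GMP-P and 24.8 TPM in GMP, and of 4900 TPM in the 5 Multi-Lin cells of GMP. The late granule list took a median of 18% of TPM in CD11b+ GMP-P and 0.0326% in GMP. Id2 had r = 0.38 and Tcf4 r = -0.59 with the logarithm of that share over the 47 CD11b+ GMP-P cells, and Ets1 r = 0.13. Over the Gran-2 cells of that gate alone, r was -0.06 for Id2, -0.50 for Tcf4 and -0.19 for Ets1. Over its Myelo-2 cells r was -0.30 for Id2, 0.06 for Tcf4 and -0.37 for Ets1. The positive value for Id2 was thus not seen within either state. The part of these marker levels in the differences between gates was not tested.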

How the data were processed

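Single-cell RNA-seq values of 92 cells were used, with 23956 gene symbols and 0 columns of other samples. The submitters' processing notes name Bowtie2, RSEM and the mm9 build, with no version. The deposited expression values are on a log2 scale, log2(TPM + 1), checked by the sum of TPM over each cell, which was 1000000 to 1000001 with the Ly6g row left out. The second deposited table is the authors' state of each cell. TPM keeps no read depth, every deposited cell was kept, and doublets were not searched for.

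For each gene the mean log2(TPM + 1), pseudocount 1, was taken over the cells of a group and subtracted, over the whole table. A gene was compared where 25% or more of the cells of either group listed it above 0, and a size rule of 2-fold described them. Contrasts were CD11b+ GMP-P minus GMP, Myelo-2 minus Gran-2, and Gran-1 minus Mono. Alternatives were pseudocounts of 0.1 and 10, the log2 of the mean TPM, scaling to equal medians of 1439 genes above 0 in at least 80% of cells, cells paired within 250 genes detected, leaving out the Myelo states, and no filter. The genes named were the 7 genes, Gfi1, Irf8, the 5 most correlated genes per gene and gate (some not printed), and up to 4 genes per list. The genes, lists and rules were chosen with earlier results of these data known, and the pairing width, the 80% limit and the minimum of 5 pairs were set after the data were seen. No statistical test was made. Promoter sequences are from RefSeq, build GRCm38.p6, and no coordinates of the files' build are given. Python 3.11.15, pandas 2.3.3, numpy 2.4.6 and scipy 1.17.1 were used.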

Additional observations from a re-analysis of the deposited data

Results flagged for a closer look

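Within states of 4 to 10 cells, 26 sets of values of the 7 genes and Gfi1 were examined for a cell far from the others on the log2 scale, a pattern with a nominal chance of about 1 in 20 sets, and in 11 the highest cell stood far off. In most of these sets the remaining cells were at or near 0 TPM, where any cell above 0 stands far off and the nominal chance does not hold. In the 5 Multi-Lin cells of GMP the far cells held 389 TPM of Ets1, 52.3 TPM of Id2, 9.16 TPM of Tcf3 and 0.42 TPM of Tcf12. In the 5 MP cells the highest Ets1 was 54.6 TPM. In the 6 Gran-1 cells of GMP they were 155 TPM of Ets1, 57.2 TPM of Id1 and 0.78 TPM of Tcf12. In the 4 Gran-1 cells of CD11b+ GMP-P they were 142 TPM of Id1, 2.57 TPM of Tcf3 and 0.18 TPM of Tcf12. The Tcf12 levels are all below 1 TPM.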

How the results depend on the processing

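No paired analysis was possible because the labels name no animals by which the gates could be paired, and no test was made. Id2 and Ets1 were the 2 genes of the group past 2-fold on the higher side in all 8 settings of the gate comparison. The count at least 2-fold lower was 1 (Tcf4) as reported, 2 with pseudocount 0.1, 2 for the log2 of mean TPM (Id1 and Tcf12), and 0 with pseudocount 10, in matched cells and without the Myelo states. Between Myelo-2 and Gran-2, 3 were lower with pseudocount 0.1 and for mean TPM and 0 with pseudocount 10 or equal medians, and 1 was higher with pseudocount 10. Between Gran-1 and Mono, 0 were lower with pseudocount 10 and 1 was higher in matched cells. The cause of these moves was not tested. Matching Myelo-2 to Gran-2 left 2 pairs and was not run.

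Over all genes, 344 were at least 2-fold higher and 4595 lower in CD11b+ GMP-P with pseudocount 0.1, 98 and 1247 with pseudocount 10, 815 and 1860 with equal medians, 932 and 1122 in matched cells and 408 and 1410 without the Myelo states, and 661 were higher for mean TPM, against 212 and 3044 as reported. This put 2.72% higher and 39% lower as reported, 10.4% and 23.8% with equal medians. For Myelo-2 against Gran-2, 312 were higher with pseudocount 0.1, 86 higher and 1744 lower with pseudocount 10, 798 higher for mean TPM, and 1533 higher and 2235 lower with equal medians. For Gran-1 against Mono, 1838 were higher with pseudocount 0.1, 439 higher and 578 lower with pseudocount 10, and 2847 lower for mean TPM.

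Over the 6 Gran-1 cells of GMP, Id2 and Gfi1 had r = -0.25 and -0.91 given genes detected, and Ets1 and Gfi1 r = -0.28, rho 0.21 and -0.76 given genes detected; 6 cells settle none of these. Id2 with Gfi1 was found in 38.3% of CD11b+ GMP-P and 22.2% of GMP cells above 10 TPM. Ets1 with Gfi1 was found in 46.8% and 15.6% above 1 TPM, and 36.2% and 11.1% above 10 TPM. The remaining 56 values of these summaries lay within 1.5 times the reported count, or within the error of the correlation or share. Among them Id2 and Gfi1 had r = 0.13 and -0.08 given genes detected in Myelo-2, and 0.32 and 0.14 in Mono. With equal medians 3 genes were higher in Myelo-2 against 2 as reported, and in matched cells 3 were lower in Gran-1 against 2. Read depth is unknown, which limits what a gene listed at 0 can show.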
